A study of Homo sapiens with 16 samples.

Results

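The unfolded protein response and the integrated stress response were followed through 36 genes in HL-60, a human promyelocytic leukaemia line. The 36 genes were chosen by name as a module, with earlier results of these data known. All 36 were found among the 23575 gene symbols of the count table. They comprise 7 stress sensors and transcription factors, 10 chaperones and cochaperones of the endoplasmic reticulum (ER), 3 protein disulfide isomerases, 3 genes of ER-associated degradation, 5 stress-induced feedback genes, 5 enzymes of amino acid and one-carbon synthesis and 3 amino acid transporter subunits. The study exposed wild-type HL-60 cells to lipoteichoic acid (LTA), a cell wall polymer of Staphylococcus aureus that is read mainly through Toll-like receptors. Differentiated cells (dHL-60) were left untreated or given 1 or 10 µg/ml LTA, and undifferentiated cells (uHL-60) were left untreated or given 1 µg/ml, each for 4 or 24 h. This gave 6 dHL-60 groups of 2 libraries and 4 uHL-60 groups of 1 library, 16 libraries in all. The labels name no agent of differentiation, and HL-60 is 1 transformed line, which limits it as a model of neutrophils. Nothing in the labels says that the duplicates came from separate cultures, so the p-values below measure the spread between these libraries, which may be technical.

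In the unfolded protein response, unfolded proteins in the ER lumen draw the chaperone HSPA5 away from the sensors EIF2AK3 (PERK), ERN1 (IRE1α) and ATF6. ERN1 splices the mRNA of XBP1, whose product, like the cleaved form of ATF6, induces chaperones and degradation genes. EIF2AK3 and its cytosolic sister kinases phosphorylate the initiation factor eIF2α, which lowers general translation and favours ATF4, the factor that induces DDIT3 (CHOP), feedback genes and genes of amino acid supply. Myeloid cells use parts of both pathways during granule protein synthesis and during inflammatory activation, and ERN1 and XBP1 can be engaged by Toll-like receptors. Counts per gene do not separate the spliced from the unspliced form of XBP1, and kinase activity was not measured.

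Promoter sequences are shown for 5 members because they carry the letters known to be read by these factors and because these genes differed in how they moved. Of the 36 members, 33 matched the RefSeq promoter table (GRCh38.p14), and PDIA3, SHMT2 and SLC7A11 did not. Windows of 300 bases, 250 before and 50 after the start that this table lists for each gene, were searched on both strands for 4 motifs. For some members, among them ASNS, CANX and SLC3A2, the listed start lies within the annotated span of the gene. The ER stress element, CCAAT followed after 9 bases of any kind by CCACG, was found in 6 of 33 members (18.2%) and in 0.0806% of 27305 promoters of the table. It lay in XBP1, HSPA5, HSP90B1, CALR, CANX and CRELD2. The second ER stress element, ATTGG followed after 1 base of any kind by CCACG, was found in SDF2L1, HYOU1 and HERPUD1 (9.1% of members against 0.0549% of all promoters). The unfolded protein response element, TGACGTGG, was found in HYOU1 alone among the members (3.0% against 0.795%). The letters TGATGNAA, the C/EBP-ATF response element bound by ATF4, were found in HERPUD1, CHAC1, ASNS and SLC3A2 (12.1% against 3.67%). A match is a description of the letters in this window, and no match says nothing about a factor. Each line below holds the 250 bases before the gene start, 5′ to 3′ on the strand of the gene, with matches in capitals. The windows are chr22:28800570-28800819 (minus strand) for XBP1, chr9:125241344-125241593 (minus strand) for HSPA5, chr11:119057206-119057455 (minus strand) for HYOU1, chr16:56931892-56932141 (plus strand) for HERPUD1 and chr15:40953221-40953470 (plus strand) for CHAC1.
XBP1: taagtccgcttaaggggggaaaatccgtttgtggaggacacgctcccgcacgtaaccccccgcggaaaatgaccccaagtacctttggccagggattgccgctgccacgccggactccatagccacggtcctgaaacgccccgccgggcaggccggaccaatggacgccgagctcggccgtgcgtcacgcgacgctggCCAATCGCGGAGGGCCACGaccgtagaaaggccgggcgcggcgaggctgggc
HSPA5: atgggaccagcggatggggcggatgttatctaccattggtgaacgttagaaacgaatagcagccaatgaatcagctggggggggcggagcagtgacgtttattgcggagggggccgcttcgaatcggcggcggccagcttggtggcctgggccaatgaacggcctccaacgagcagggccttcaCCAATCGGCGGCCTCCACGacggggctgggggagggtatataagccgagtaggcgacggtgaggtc
HYOU1: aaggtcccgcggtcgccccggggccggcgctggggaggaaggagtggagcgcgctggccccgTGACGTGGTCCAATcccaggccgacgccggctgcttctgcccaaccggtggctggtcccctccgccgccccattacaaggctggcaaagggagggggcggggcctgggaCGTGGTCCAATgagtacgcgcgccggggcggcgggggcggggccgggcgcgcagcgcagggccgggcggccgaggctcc
HERPUD1: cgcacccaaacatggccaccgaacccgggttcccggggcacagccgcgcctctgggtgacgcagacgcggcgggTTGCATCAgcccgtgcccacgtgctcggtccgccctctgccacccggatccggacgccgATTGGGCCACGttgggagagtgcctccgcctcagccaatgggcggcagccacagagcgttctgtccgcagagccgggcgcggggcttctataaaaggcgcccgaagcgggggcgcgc
CHAC1: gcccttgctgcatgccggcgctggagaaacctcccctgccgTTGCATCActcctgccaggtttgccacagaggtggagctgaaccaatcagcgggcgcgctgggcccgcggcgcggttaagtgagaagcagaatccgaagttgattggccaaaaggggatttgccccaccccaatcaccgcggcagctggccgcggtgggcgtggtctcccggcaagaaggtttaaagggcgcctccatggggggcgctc
XBP1 and HSPA5 each show 1 ER stress element, which starts 52 and 66 bases before the gene start. HYOU1 shows the second ER stress element at 2 places on the opposite strand, and the first of these overlaps the unfolded protein response element, so that the capitals run together. HERPUD1 shows both an opposite-strand C/EBP-ATF element and a second ER stress element, and CHAC1 shows the C/EBP-ATF element alone.

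Levels are given as CPM, counts relative to the scaled library total. Library totals ran from 9653374 to 20157081 counts, and the 36 members took 0.695 to 1.316% of the counts. Replicates of all 6 dHL-60 groups differed by more than sampling noise. Promyelocyte markers (8 of 8 detected) summed to 25100 to 28300 CPM in uHL-60. In dHL-60 they summed to 10200 to 13200 CPM without LTA at 4 h, 8860 to 9600 at 1 µg/ml and 7920 to 8950 at 10 µg/ml. At 24 h the sums were 19000 to 24900, 7430 to 10800 and 5620 to 6880 CPM. Mature neutrophil markers (8 of 8 detected) summed to 400 to 447 CPM in uHL-60 and to 3640 to 4250, 4860 to 5210 and 4730 to 5230 in dHL-60 at 4 h. At 24 h they reached 1850 to 1890, 4060 to 4180 and 5920 to 6070 CPM. Macrophage markers summed to 17.4 to 20.9 CPM in uHL-60 and to 135 to 163, 547 to 600 and 475 to 554 in dHL-60 at 4 h. At 24 h they summed to 48.8 to 51.8 without LTA, 226 to 236 at 1 µg/ml and 320 to 366 at 10 µg/ml. Lymphocyte markers summed to 23.9 to 25.5, 52 to 58.6 and 61.8 to 64.6 CPM in dHL-60 at 4 h and to 10.5 to 11.4, 114 to 151 and 210 to 292 at 24 h, nearly all of it NKG7. Red cell and platelet markers summed to 35 to 38, 1.74 to 2.05 and 22.7 to 26.4 CPM in dHL-60 at 4 h. Among them HBB was at 32.2 and 35 CPM without LTA, 0.497 and 0.157 at 1 µg/ml and 20.9 and 23.6 at 10 µg/ml. The source of this HBB RNA was not tested. In all other groups these markers summed to 8.96 CPM or less. MSR1, a macrophage marker, was at 0 in 5 of 6 dHL-60 groups. The marker sums therefore moved with time and LTA, and their part in the results below was not tested. In bulk RNA, fewer cells of a type and less RNA per cell cannot be told apart.

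Per kb of exon, untreated dHL-60 at 4 h held the most RNA for CALR (377 CPM per kb), ATF4 (285), HSPA5 (249), HSP90B1 (154), CANX (111) and XBP1 (106). The sensors themselves were scarce, with 7.28 CPM per kb for ATF6, 3.51 for EIF2AK3 and 2.84 for ERN1. The lowest members were SESN2 (2.54), CHAC1 (0.571) and ASNS (0.167). CHAC1 and ASNS rest on few reads in dHL-60, 12 and 13 counts for CHAC1 and 7 and 9 for ASNS.

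After 4 h, LTA raised most of the module in dHL-60. At 1 µg/ml 23 of 36 members rose and 0 fell, where 18.7% of the 11866 genes tested rose, 20.1% fell and 38.7% changed in either direction (edgeR quasi-likelihood test, Benjamini-Hochberg adjusted p under 0.05, the rule for every call below). At 10 µg/ml 21 rose and 0 fell, where 20% of all genes rose, 21.3% fell and 41.3% changed. At an unadjusted p under 0.05, 24 and 26 members were higher and 0 lower. The median log2 fold change was 0.588 over the members against -0.04 over all genes at 1 µg/ml, and 0.543 against -0.035 at 10 µg/ml. In 30 of 36 members, at either dose, both treated libraries lay above both controls. They lay below both in 2 members at 1 µg/ml and in 1 at 10 µg/ml. The share of all genes was determined neither for this separation nor for the counts at an unadjusted p. Both doses were compared with the same control libraries, so they are not independent. The members were chosen with earlier results of these data known, so their counts are no independent test of the module. Under upper-quartile scaling 19 and 17 members rose and 0 fell, without CALR, EDEM1, HSP90B1 and PDIA6 at 1 µg/ml and without ATF4, CRELD2, ERN1 and HSP90B1 at 10 µg/ml.

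**Figure D1:**
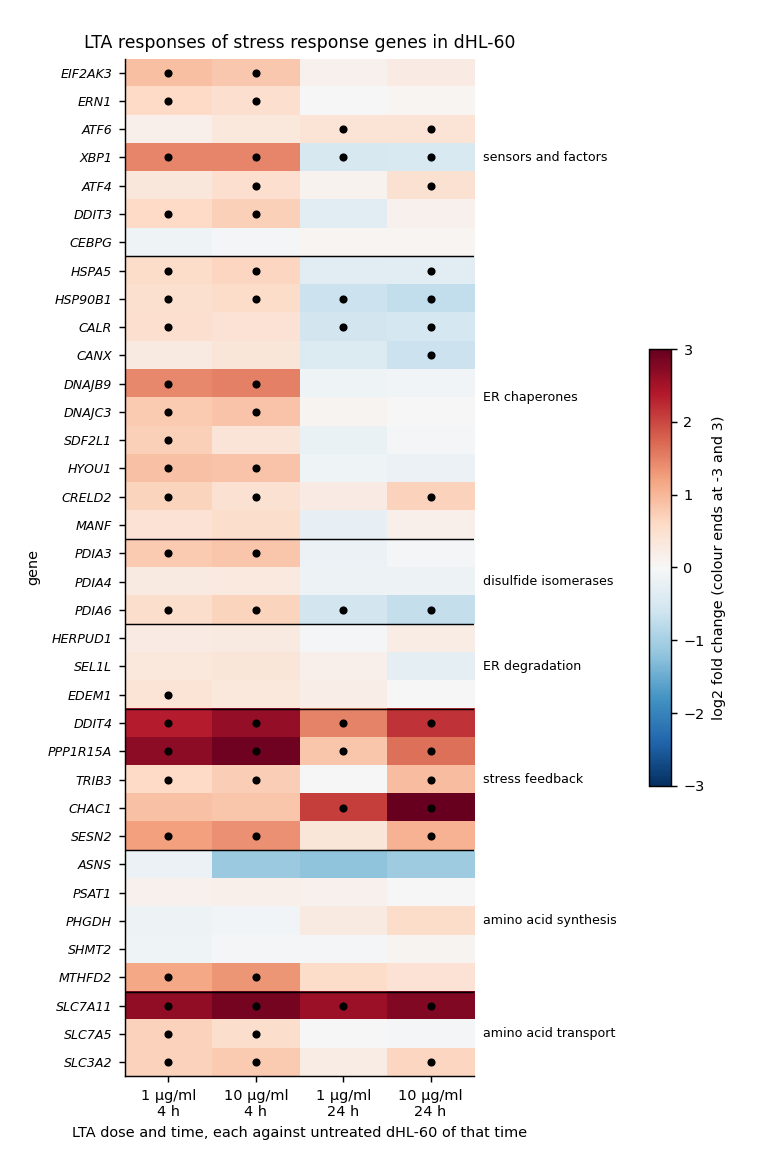
Colour gives the log2 fold change of each member (rows, grouped by role) in dHL-60 for 2 LTA doses at 2 times, each against untreated cells of that time, and black dots mark called genes. Dots fill 23 and 21 rows at 4 h, all red, while at 24 h XBP1 and several chaperones and isomerases are blue and most stress feedback genes remain red.

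Among sensors and factors, XBP1 rose most at 4 h. Its RNA stood at 342 and 302 CPM in the controls, 922 and 848 at 1 µg/ml and 892 and 891 at 10 µg/ml. The log2 fold changes were 1.46 ± 0.15 (SE; n = 2 libraries a group throughout; adjusted p = 4.8e-06) and 1.48 ± 0.15, and every treated library lay above both controls. EIF2AK3, the PERK kinase, went from 16.4 and 21.8 CPM to 36.1 and 35.4 and to 32.3 and 34.4, changes of 0.90 ± 0.16 and 0.81 ± 0.16. ERN1, the kinase and nuclease that splices XBP1 mRNA, rose by 0.59 ± 0.15 and 0.49 ± 0.15. DDIT3, the CHOP factor tied to death under prolonged stress, went from 53.3 and 44.2 CPM to 80.5 and 66.5 and to 77.0 and 82.0, with changes of 0.59 ± 0.16 and 0.71 ± 0.16. Genes on the opposite strand share 31.6% of the exon bases of DDIT3 and 15.1% of those of EIF2AK3, which leaves both uncertain, since it is not known whether counting used the strand. ATF4 was at 789 and 643 CPM in controls, 997 and 826 at 1 µg/ml and 989 and 1040 at 10 µg/ml. It was called at 10 µg/ml (0.51 ± 0.16, adjusted p = 0.0185) and not at 1 µg/ml (0.35 ± 0.16, adjusted p = 0.0942). ATF6 (0.16 ± 0.13 and 0.33 ± 0.12) and the ATF4 partner CEBPG (-0.13 ± 0.12 and -0.06 ± 0.12) were not called. Some of these calls rested on single libraries. ERN1 was not called without control replicate 1 or an LTA replicate (1 µg/ml: replicate 2; 10 µg/ml: either; adjusted p = 0.0641 to 0.149), DDIT3 at 1 µg/ml without control replicate 2 or LTA replicate 1 (0.0801 and 0.083) and ATF4 at 10 µg/ml without control replicate 2 or either LTA replicate (0.061 to 0.122).

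Of 10 chaperones and cochaperones, 8 rose at 1 µg/ml and 6 at 10 µg/ml. DNAJB9, a cochaperone of HSPA5 and a classical target of XBP1, went from 11.8 and 18.8 CPM to 34.9 and 48.9 and to 40.1 and 46.9. Its changes were 1.45 ± 0.24 and 1.5 ± 0.24. HYOU1, which exchanges nucleotide on HSPA5, went from 178 and 167 CPM to 320 and 317 and to 315 and 307 (0.89 ± 0.14 and 0.86 ± 0.14). DNAJC3, another HSPA5 cochaperone, rose by 0.78 ± 0.15 and 0.86 ± 0.15. HSPA5 itself, the main ER chaperone, was at 974 and 970 CPM in controls, 1430 in both libraries at 1 µg/ml and 1540 and 1460 at 10 µg/ml, changes of 0.56 ± 0.13 and 0.64 ± 0.13. These 4 genes showed no overlap between treated and control libraries at either dose. CRELD2, an ER protein induced by stress, rose by 0.67 ± 0.14 and 0.46 ± 0.14, and HSP90B1, the ER member of the HSP90 family, by 0.47 ± 0.17 and 0.55 ± 0.17. CALR, a lectin chaperone, and SDF2L1, a partner of HSPA5 complexes, were called at 1 µg/ml only (0.50 ± 0.17 and 0.71 ± 0.17), with 0.44 ± 0.17 and 0.38 ± 0.17 at 10 µg/ml. CANX, the membrane-bound lectin chaperone, and the secreted stress factor MANF were not called at either dose (0.28 to 0.53). HSP90B1 lost its call at both doses when any 1 of the 4 libraries was left out (adjusted p = 0.0575 to 0.21) and CALR without control replicate 1 or 2 or LTA replicate 2 (0.0537 to 0.244), and both lost it under upper-quartile scaling. SDF2L1 lost its call without control replicate 2 (0.0606) and CRELD2 its call at 10 µg/ml without control replicate 1 or LTA replicate 2 (0.113 and 0.208) or under upper-quartile scaling (0.0969).

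Of 3 protein disulfide isomerases 2 rose at each dose, and of 3 degradation genes 1 rose at 1 µg/ml and 0 at 10 µg/ml. PDIA3, the isomerase that works with the lectin chaperones, went from 344 and 348 CPM to 593 and 607 and to 590 and 636 (0.79 ± 0.13 and 0.83 ± 0.13). PDIA6, which also acts on ERN1 signalling, rose by 0.53 ± 0.16 and 0.66 ± 0.16, from 152 and 163 CPM to 205 and 250 and to 240 and 256. PDIA4 was not called (0.27 ± 0.13 and 0.30 ± 0.13). Both isomerases were above all controls in every treated library. Of the degradation genes, EDEM1, which hands misfolded glycoproteins to disposal, rose at 1 µg/ml alone (0.42 ± 0.14, adjusted p = 0.0243, lost without control replicate 1 or LTA replicate 2, at 0.146 and 0.179, as was that of PDIA6 at the same dose, at 0.0896 and 0.164). HERPUD1, a scaffold of the degradation complex, and SEL1L, the adaptor of its ubiquitin ligase, lay between 0.24 and 0.36 and were not called. Genes on the opposite strand share 18.9% of the exon bases of PDIA3 and 25.2% of those of PDIA6. Since strand use in counting is not known, these counts are uncertain too.

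The feedback genes held the largest changes at 4 h. PPP1R15A (GADD34), which brings a phosphatase to eIF2α and so restores translation, went from 212 and 127 CPM to 1270 and 916 at 1 µg/ml and 1330 and 1210 at 10 µg/ml. Its changes were 2.69 ± 0.22 (adjusted p = 9.5e-07) and 2.91 ± 0.23 (adjusted p = 4.48e-07). DDIT4, which restrains the growth kinase complex mTORC1, went from 48.9 and 37.4 CPM to 184 and 256 and to 210 and 327 (2.35 ± 0.23 and 2.65 ± 0.24). Its antisense neighbour DDIT4-AS1 shares 41.2% of its exon bases. SESN2, a leucine-sensing brake on the same complex, rose from 8.65 and 8.91 CPM to 20.9 and 20.4 and to 21.7 and 23.8 (1.23 ± 0.19 and 1.38 ± 0.18). TRIB3, a pseudokinase that dampens ATF4, was at 50.1 and 59.3 CPM in controls, 76.0 and 88.6 at 1 µg/ml and 87.4 and 93.6 at 10 µg/ml (0.59 ± 0.17 and 0.73 ± 0.17). All 4 stood apart from the controls in every library, though TRIB3 at 1 µg/ml was not called without control replicate 1 or LTA replicate 2 (adjusted p = 0.0879 and 0.0935). CHAC1, which degrades glutathione, was at 1.24 and 1.11 CPM in controls and 1.73 to 2.73 CPM with LTA. It was not called (0.89 ± 0.42 and 0.83 ± 0.42, adjusted p = 0.114 and 0.134).

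Amino acid transporters rose and most synthesis enzymes did not pass the test. SLC7A11, the cystine importer, went from 34.5 and 54.8 CPM to 238 and 327 at 1 µg/ml and 334 and 314 at 10 µg/ml. Its changes were 2.66 ± 0.28 (adjusted p = 7.88e-06) and 2.86 ± 0.28 (adjusted p = 3.8e-06). SLC3A2, the heavy chain that SLC7A11 and SLC7A5 need at the membrane, went from 181 and 168 CPM to 283 and 281 and to 300 and 302 (0.69 ± 0.12 and 0.79 ± 0.12). SLC7A5, the importer of large neutral amino acids, rose by 0.68 ± 0.14 and 0.54 ± 0.14. All 3 were higher in every treated library than in either control, and only SLC7A5 at 10 µg/ml lost its call without a library (control replicate 2 or LTA replicate 1, adjusted p = 0.0505 and 0.0611). MTHFD2, a mitochondrial folate enzyme, went from 79.0 and 91.8 CPM to 171 and 213 and to 234 and 191 (1.17 ± 0.19 and 1.32 ± 0.19), and antisense genes share 33.2% of its exon bases. The serine pathway enzymes PHGDH (-0.14 ± 0.23 and -0.09 ± 0.23) and PSAT1 (0.14 ± 0.32 and 0.16 ± 0.32) and the glycine enzyme SHMT2 (-0.13 ± 0.13 and -0.04 ± 0.13) were not called. ASNS, asparagine synthetase, was not called either, at 0.721 and 0.771 CPM in controls, 0.248 and 0.945 at 1 µg/ml and 0.395 and 0.284 at 10 µg/ml, from 2 to 12 counts a library.

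**Figure D2:**
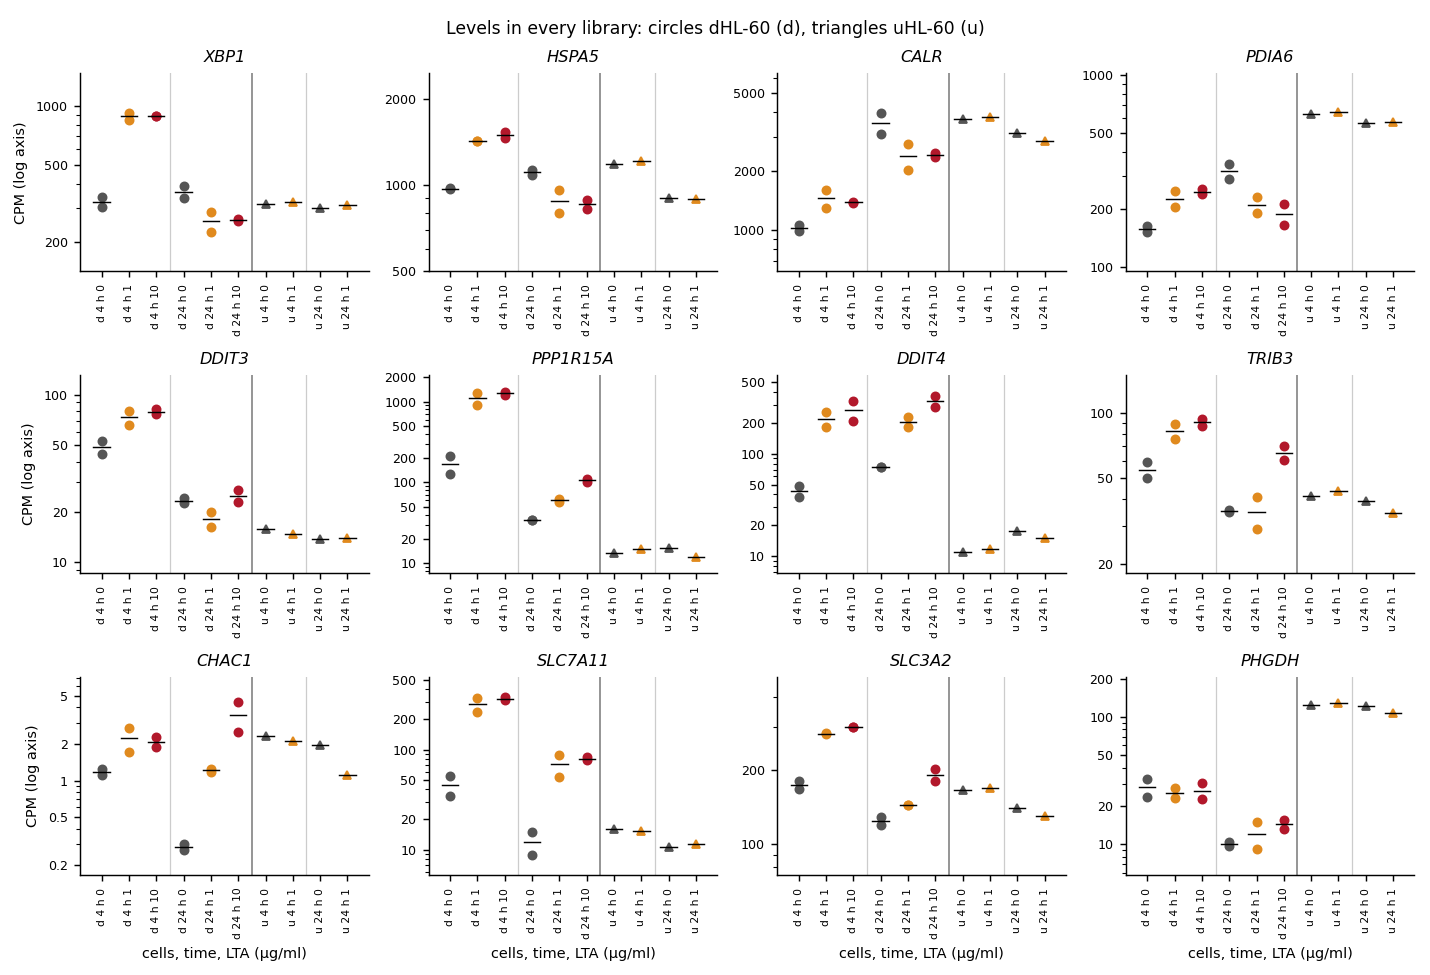
Each panel plots 1 member in CPM on a log axis for all 16 libraries, with dHL-60 as circles and uHL-60 as triangles, grouped by time and LTA dose, and lines at group means. XBP1 and HSPA5 are above their controls in the 4 LTA libraries at 4 h and below them at 24 h, while SLC7A11 and DDIT4 stay above their controls at both times and CHAC1 is highest at 10 µg/ml and 24 h.

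At 24 h members changed in both directions. At 1 µg/ml 5 members rose and 4 fell (9 of 36, where 13.9% of all genes rose, 7.26% fell and 21.2% changed), and at 10 µg/ml 10 rose and 6 fell (16 of 36, where 23.6% rose, 19% fell and 42.6% changed), shares near those of all genes. The median log2 fold changes were 0.009 and 0.056 over the members, and 0.014 and -0.006 over all genes. Every call lower was XBP1, a chaperone or an isomerase, and most calls higher were feedback genes or transporters. The count at 1 µg/ml rested on single libraries. It was 4 without either control library and 2 without LTA replicate 1, and only DDIT4 and SLC7A11 were called in each of the 4 fits. At 10 µg/ml it was 10 without LTA replicate 1, and 10 of the 16 calls held in each fit. Under upper-quartile scaling the split at 1 µg/ml was 4 higher and 5 lower. All 8 promyelocyte markers fell and 6 of 8 mature neutrophil markers rose at both doses. Their part in these results was not tested.

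At 24 h the called chaperones and isomerases were lower with LTA, with the exception of CRELD2 at 10 µg/ml. XBP1 was at 389 and 339 CPM in controls, 227 and 286 at 1 µg/ml and 257 and 265 at 10 µg/ml, changes of -0.49 ± 0.14 (adjusted p = 0.0267) and -0.46 ± 0.14 (adjusted p = 0.0211). HSP90B1 went from 1210 and 1200 CPM to 615 and 914 and to 638 and 793 (-0.65 ± 0.17 and -0.73 ± 0.17). CALR, at 3090 and 3950 CPM in controls, was at 2030 and 2760 and at 2360 and 2470 with LTA (-0.54 ± 0.17 and -0.52 ± 0.17). PDIA6 went from 343 and 289 CPM to 191 and 233 and to 165 and 213 (-0.56 ± 0.16 and -0.72 ± 0.16). All treated libraries lay below both controls for these 4 genes. HSPA5, at 1090 and 1130 CPM in controls, was at 799 and 961 and at 829 and 889 with LTA. It fell at 10 µg/ml (-0.35 ± 0.13, adjusted p = 0.0469) and was not called at 1 µg/ml (-0.32 ± 0.13, adjusted p = 0.101). CANX fell at 10 µg/ml, from 1330 and 1110 CPM to 637 and 909 (-0.63 ± 0.19). CRELD2, whose promoter window holds the ER stress element as do those of XBP1, HSPA5, HSP90B1, CALR and CANX, rose at 10 µg/ml instead, from 26.4 and 28.2 CPM to 43.0 and 44.2 (0.70 ± 0.14, adjusted p = 0.00158). DNAJB9, HYOU1 and DNAJC3, which rose at 4 h, were not called at 24 h (-0.17 to 0.09). At 10 µg/ml HSP90B1, PDIA6 and CRELD2 kept their calls in each fit without 1 library, whereas XBP1, HSPA5, CALR and CANX lost theirs without LTA replicate 1 and without at least 1 other library (adjusted p = 0.0651 to 0.214).

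Feedback genes and transporters made up most of the calls higher at 24 h. SLC7A11 was at 15 and 8.89 CPM in controls, 88.2 and 53.7 at 1 µg/ml and 77.9 and 84.2 at 10 µg/ml, changes of 2.56 ± 0.29 and 2.77 ± 0.29. DDIT4 went from 73.6 and 73.8 CPM to 184 and 226 and to 287 and 366 (1.49 ± 0.23 and 2.17 ± 0.23). PPP1R15A went from 34.2 and 34.4 CPM to 62.7 and 57.4 and to 112 and 101 (0.82 ± 0.22 and 1.66 ± 0.22). In all 3 genes both treated groups stood clear of the controls. CHAC1 went from 0.267 and 0.299 CPM, 5 and 4 counts, to 1.24 and 1.18 and to 4.46 and 2.49 (2.08 ± 0.52, adjusted p = 0.0109, and 3.59 ± 0.46, adjusted p = 3.71e-05). TRIB3 was at 34.8 and 35.4 CPM in controls and 29 and 40.9 at 1 µg/ml, where it overlapped them (0.01 ± 0.17), and rose to 70.5 and 60.7 at 10 µg/ml (0.92 ± 0.17). SESN2 likewise was called at 10 µg/ml alone, at 10.4 and 13.4 CPM against 5.94 and 5.83 (1.04 ± 0.19), with 0.37 ± 0.19 at 1 µg/ml. SLC3A2 rose at 10 µg/ml from 119 and 129 CPM to 203 and 180 (0.65 ± 0.12) and stood at 144 in both libraries at 1 µg/ml (0.23 ± 0.12). These calls at 10 µg/ml held in each fit without 1 library. ATF4 was at 531 and 562 CPM in controls, 513 and 643 at 1 µg/ml (0.10 ± 0.16) and 721 and 765 at 10 µg/ml (0.47 ± 0.16, adjusted p = 0.027). ATF6 rose at both doses from 65.8 and 71.6 CPM to 93.2 and 86.6 and to 87.6 and 90.5 (0.40 ± 0.12 at each). The calls of ATF4 at 10 µg/ml (adjusted p = 0.0793 to 0.132) and of ATF6 at 1 µg/ml (0.0699 to 0.218) were lost whichever of the 4 libraries was left out, and that of ATF6 at 10 µg/ml in 3 of the 4 fits (0.0766 to 0.118). DDIT3, at 22.5 and 24.1 CPM in controls, was not called (-0.34 ± 0.16 and 0.13 ± 0.16), nor were ASNS (-1.20 ± 0.48 and -1.06 ± 0.48, from 6 to 25 counts) and the other synthesis enzymes.

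The change in response between the times was tested directly as an interaction, 24 h minus 4 h. At 1 µg/ml the response was lower at 24 h for 15 members and higher for 0 (41.7% of members, where 7.41% of all genes were lower, 13.3% higher and 20.7% called), and no member was higher even at an unadjusted p under 0.05. At 10 µg/ml it was lower for 13 and higher for 1 (38.9%, where 14% of all genes were lower, 19.7% higher and 33.7% called). The ER genes made up most of the lower calls. XBP1 differed by -1.95 ± 0.21 at 1 µg/ml and -1.93 ± 0.21 at 10 µg/ml, DNAJB9 by -1.59 ± 0.33 and -1.58 ± 0.33, HSP90B1 by -1.12 ± 0.25 and -1.28 ± 0.25 and PDIA6 by -1.09 ± 0.23 and -1.38 ± 0.23. HYOU1, PDIA3, HSPA5 and CALR differed by -0.88 to -1.04 in each of the 2 doses. The ATF4 branch was mixed. PPP1R15A differed by -1.86 ± 0.31 and -1.25 ± 0.30, whereas SLC7A11 (-0.09 ± 0.40 and -0.10 ± 0.40) and DDIT4 (-0.86 ± 0.32 and -0.47 ± 0.32) were not called. CHAC1 was the only member with a higher response at 24 h, at 10 µg/ml (2.76 ± 0.65, adjusted p = 0.00582), with 1.20 ± 0.68 at 1 µg/ml (adjusted p = 0.242). XBP1, DNAJB9, HSP90B1, PDIA6, HYOU1, PDIA3, HSPA5, CALR and PPP1R15A were called at both doses in each fit without 1 library. The count at 1 µg/ml fell to 9 without LTA 24 h replicate 1.

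**Figure D3:**
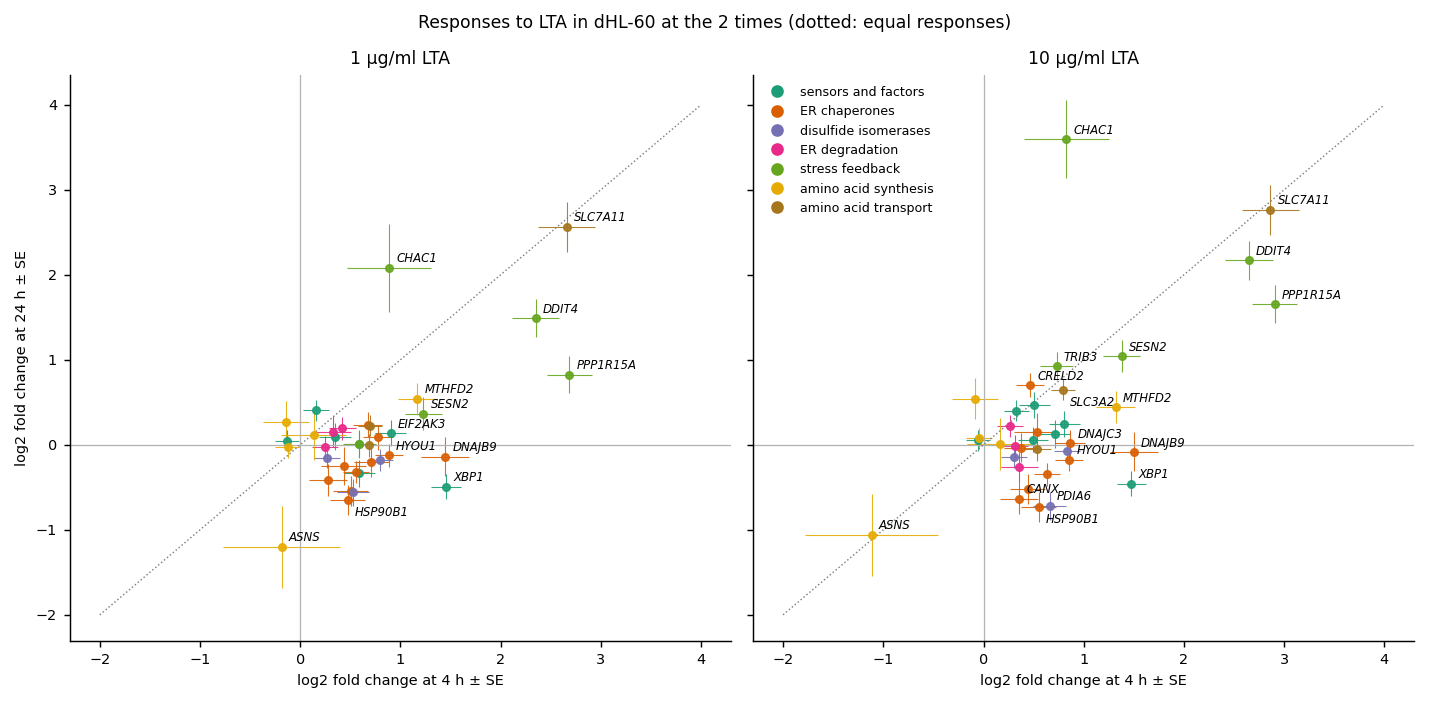
Each point is 1 member, placed by its log2 fold change with LTA against untreated dHL-60 at 4 h (x axis) and 24 h (y axis), with SE bars, coloured by role, for 1 µg/ml (left) and 10 µg/ml (right). XBP1, DNAJB9 and most chaperones lie below the dotted line of equal response, SLC7A11 lies on it, and CHAC1 lies above it.

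Untreated dHL-60 also changed between 4 and 24 h. Of 10 chaperones 5 rose and 1, CRELD2, fell, 3 of 3 isomerases rose, and of 5 feedback genes 4 fell and 1, DDIT4, rose. Of 36 members 10 rose and 9 fell (52.8%, where 17.8% of all genes rose, 23.1% fell and 40.9% changed), with a median of 0.191 against -0.04 over all genes. Among ER genes, CALR went from 1060 and 986 CPM to 3090 and 3950 (1.78 ± 0.18), PDIA6 from 152 and 163 to 343 and 289 (1.01 ± 0.16) and CANX from 613 and 767 to 1330 and 1110 (0.83 ± 0.19). HSP90B1, HYOU1, DNAJB9, PDIA3 and PDIA4 rose by 0.44 to 0.75. XBP1 (0.18 ± 0.14) and HSPA5 (0.20 ± 0.13) were not called. All 3 isomerases thus rose, and HSPA5, the most used marker of ER stress, did not pass the test. PPP1R15A fell from 212 and 127 CPM to 34.2 and 34.4 (-2.30 ± 0.23), CHAC1 from 1.24 and 1.11 to 0.267 and 0.299 (-2.02 ± 0.54) and SLC7A11 from 34.5 and 54.8 CPM to 15 and 8.89 (-1.88 ± 0.29). PHGDH, the first enzyme of serine synthesis, went from 23.5 and 32.7 CPM to 10.5 and 9.71 (-1.47 ± 0.24). DDIT3 (-1.06 ± 0.16), TRIB3 (-0.64 ± 0.17), SESN2 (-0.57 ± 0.20), SLC3A2 (-0.48 ± 0.12) and CRELD2 (-0.43 ± 0.14) also fell. DDIT4 (0.78 ± 0.23) and MTHFD2 (0.91 ± 0.19) rose. ATF4 (-0.39 ± 0.16, adjusted p = 0.0626) and ASNS (0.88 ± 0.49) were not called. The count fell to 11 without the 24 h control replicate 1, where DNAJB9, CRELD2, PDIA3, DDIT4, TRIB3, CHAC1, SESN2 and SLC3A2 lost their calls. In these libraries all 8 mature neutrophil markers fell and 4 of 8 promyelocyte markers rose. Their part in the result was not tested. The 24 h responses above were measured against these shifted controls. SLC7A11 at 24 h with LTA (53.7 to 88.2 CPM) overlapped its untreated level at 4 h (34.5 and 54.8), and PPP1R15A with LTA at 24 h (57.4 to 112 CPM) lay below its untreated level at 4 h (212 and 127).

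The 10-fold step in dose changed few members. At 4 h 0 of 36 members differed between 10 and 1 µg/ml, also 0 at an unadjusted p under 0.05 and 0 by DESeq2. Of all genes 0.00843% was called by edgeR, 1 gene, the red cell marker HBB. Log2 differences at 4 h ran from -0.93 for ASNS to 0.29 for DDIT4, and for XBP1 the difference was 0.02 ± 0.14. At 24 h 3 members were higher at 10 µg/ml (8.33%, where 3.03% of all genes were higher and 0.792% lower, 3.82% in all) and 0 lower. All 3 were feedback genes, namely CHAC1 (1.51 ± 0.37, adjusted p = 0.0404), TRIB3 (0.92 ± 0.17, adjusted p = 0.00902) and PPP1R15A (0.83 ± 0.22, adjusted p = 0.0493). Their libraries did not overlap between the doses. DDIT4 (0.68 ± 0.22), SESN2 (0.68 ± 0.19) and SLC3A2 (0.42 ± 0.12) also had both libraries higher at 10 µg/ml and were not called. These calls rested on single libraries, with 0 left without 10 µg/ml replicate 1 or 1 µg/ml replicate 1 and 1 left without 1 µg/ml replicate 2. Without 10 µg/ml replicate 2 the calls were 2 higher and 1 lower, and PPP1R15A was not among them (adjusted p = 0.0575). DESeq2 called 4 members, of which 2, TRIB3 and PPP1R15A, were shared with edgeR.

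In uHL-60 no member was called. In a fit of the 4 libraries that adjusted for time, 0 of 36 members differed between LTA and control by edgeR and 0 by DESeq2, with 1 lower at an unadjusted p under 0.05, where 0.209% of all genes were called, 0.0998% higher and 0.109% lower. The log2 estimates ran from -0.40 to 0.08. This fit had 1 residual degree of freedom and took 1 LTA difference over both times. It therefore cannot show that a response was absent at 4 or at 24 h. Within a time there was 1 library a group and no test, so the intervals here cover counting error only. At 4 h all 36 log2 ratios lay between -0.193 and 0.277, and 0 passed 1.5-fold. PPP1R15A was at 13.3 CPM without and 15.2 with LTA (log2 ratio 0.199, 95% interval -0.05 to 0.451), XBP1 at 316 and 321 CPM and SLC7A11 at 15.9 and 15.4 CPM. At 24 h the ratios lay between -0.762 and 0.172, and 2 members passed 1.5-fold, both lower with LTA. These were SESN2 (4.93 against 2.86 CPM, interval -1.325 to -0.264) and CHAC1 (38 against 18 counts, interval -1.699 to 0.042). HSPA5 was at 1190 and 1220 CPM at 4 h and 903 and 895 CPM at 24 h.

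The responses of dHL-60 and uHL-60 to 1 µg/ml were then compared as an interaction, which takes the spread of the dHL-60 duplicates for the single uHL-60 libraries. At 4 h the response was greater in dHL-60 for 9 members and smaller for 0 (25%, where 5.43% of all genes were greater, 4.91% smaller and 10.3% called). The largest differences were 2.71 ± 0.49 for SLC7A11, 2.49 ± 0.39 for PPP1R15A, 2.24 ± 0.42 for DDIT4 and 1.44 ± 0.25 for XBP1 (adjusted p = 0.00323, 0.00114, 0.00406 and 0.00234). These 4 kept their calls in each fit without 1 dHL-60 library. MTHFD2 (1.16 ± 0.32), EIF2AK3 (0.91 ± 0.27), DNAJC3 (0.91 ± 0.26), HYOU1 (0.90 ± 0.24) and PDIA3 (0.75 ± 0.23) were also called. The count was 5 without dHL-60 control replicate 1, 4 without dHL-60 LTA replicate 2 and 5 under upper-quartile scaling. HSPA5 (0.52 ± 0.23, 95% interval 0.032 to 1.012 before adjustment), ATF4 (0.34 ± 0.27) and DDIT3 (0.71 ± 0.29) were not called. At 24 h SLC7A11 alone was called (2.45 ± 0.51, adjusted p = 0.0283; 2.78% of members, where 1.35% of all genes were greater, 0.278% smaller and 1.63% called), and 0 members were called without the 24 h dHL-60 control replicate 2 or LTA replicate 1. CHAC1 differed by 2.87 ± 0.75 (adjusted p = 0.0746) and DDIT4 by 1.70 ± 0.40 (adjusted p = 0.0516) at that time.

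**Figure D4:**
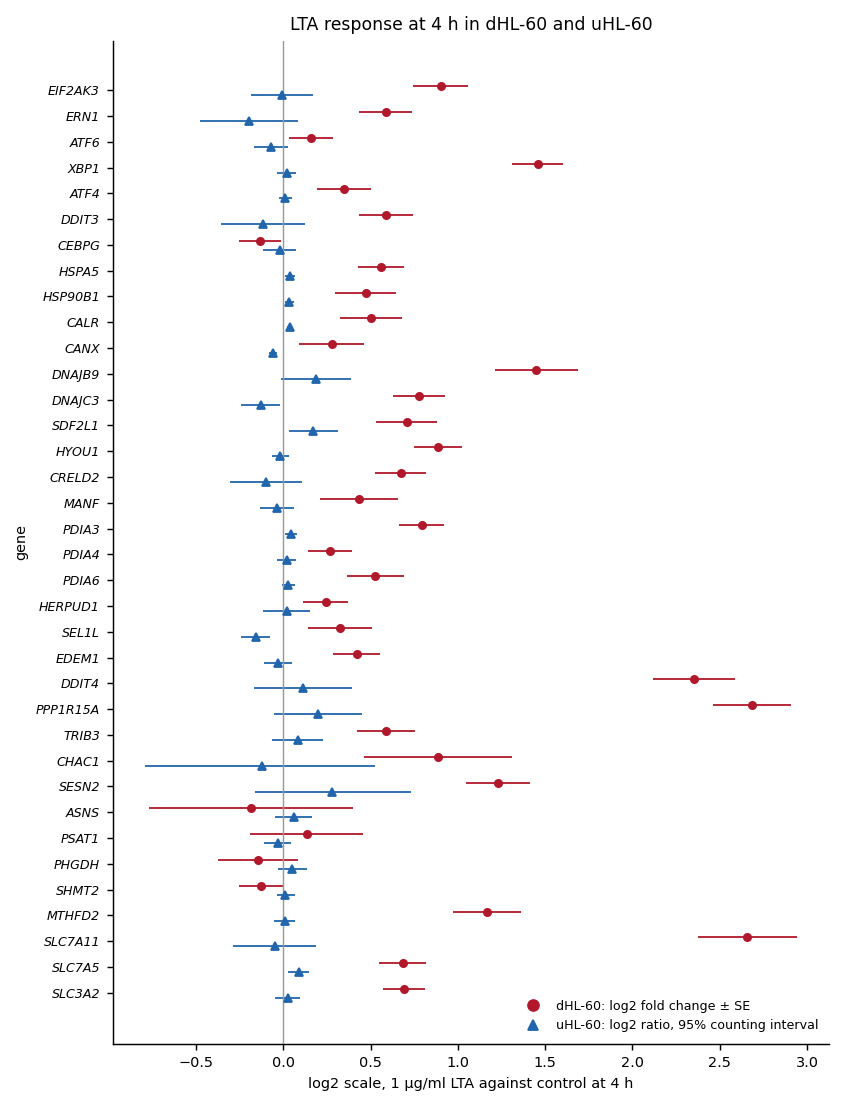
For each member, the log2 change with 1 µg/ml LTA at 4 h is plotted for dHL-60 (circles, fold change ± SE, n = 2 a group) and for uHL-60 (triangles, ratio of 1 library to 1 library with its 95% counting interval). The uHL-60 ratios lie between -0.193 and 0.277, while PPP1R15A, SLC7A11 and DDIT4 in dHL-60 lie above 2.

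Untreated dHL-60 and uHL-60 differed in 19 of 36 members, 5 higher and 14 lower in dHL-60 (52.8%, against 58% of all genes, of which 29.7% were higher and 28.3% lower). The comparison used 4 dHL-60 and 2 uHL-60 libraries in a fit that adjusted for time. A batch shared by the uHL-60 libraries and the cell state cannot be told apart here. Counting may also have differed between the dHL-60 and uHL-60 libraries, as described below for ASNS, which is among the 14 lower. Of the other lower members, PSAT1, MTHFD2, PDIA3 and SLC7A5 have pseudogenes named after them, whose part in the counts was not tested. Serine and one-carbon enzymes were lower in dHL-60. PSAT1 was at 14.6 to 29.3 CPM in untreated dHL-60 and at 151 and 119 in uHL-60 (-2.69 ± 0.25). PHGDH was at 9.71 to 32.7 against 124 and 122 CPM, 7.7-fold lower (adjusted p = 7.65e-05). SHMT2 (162 to 204 against 326 and 315 CPM, -0.86 ± 0.17) and MTHFD2 (79.0 to 186 against 256 and 224 CPM, -1.11 ± 0.27) followed. Untreated libraries of the 2 states did not overlap in any of these enzymes. All 3 isomerases were lower too, with PDIA6 at 152 to 343 against 628 and 566 CPM (-1.49 ± 0.26), PDIA4 at -0.98 ± 0.23 and PDIA3 at -0.75 ± 0.18, as were CANX (-0.92 ± 0.24), HYOU1 (-0.65 ± 0.23), EIF2AK3 (-0.58 ± 0.19), ATF6 (-0.62 ± 0.17) and SLC7A5 (-0.78 ± 0.19). CHAC1 was at 0.267 to 1.24 against 2.33 and 1.95 CPM (-1.83 ± 0.48).

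Of the 5 members higher in dHL-60, 4 were sensors, factors or feedback genes and 1, CRELD2, was among the chaperones and cochaperones. PPP1R15A was at 34.2 to 212 CPM in untreated dHL-60 and 13.3 and 15.5 in uHL-60 (2.22 ± 0.54). DDIT4 was at 37.4 to 73.8 against 10.9 and 17.7 CPM (1.98 ± 0.20), DDIT3 at 22.5 to 53.3 against 15.9 and 13.8 (1.14 ± 0.24) and ERN1 at 27.3 to 34.4 against 12.2 and 14.2 (1.22 ± 0.20). CRELD2 differed by 0.64 ± 0.18. Each of these 5 was higher in all 4 dHL-60 libraries. Genes on the opposite strand share 41.2% of the exon bases of DDIT4 and 31.6% of those of DDIT3. Over all genes sharing over 10% on the opposite strand only, the median log2 difference was 0.23. It was 0.015 for genes sharing at most 10% on either strand. Both values are thus uncertain. Among the lower members, EIF2AK3, PDIA3, PDIA6 and MTHFD2 also share over 10% in this way. XBP1 (0.12 ± 0.18), ATF4 (0.15 ± 0.18), HSPA5 (-0.04 ± 0.20), TRIB3 (0.09 ± 0.19), SLC3A2 (-0.08 ± 0.16) and SLC7A11 (0.78 ± 0.36) were not called. EIF2AK3 and HYOU1, of which HYOU1 overlapped between the states, lost their calls under upper-quartile scaling (adjusted p = 0.072 and 0.0709) and without any 1 of 3 dHL-60 control libraries each (0.0554 to 0.118), and CRELD2 without the 24 h control replicate 2 (0.0537). Of the mature neutrophil markers 7 of 8 were higher in dHL-60 than in uHL-60, while 3 of 8 promyelocyte markers fell and 2 rose. Their part in the result was not tested.

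ASNS needs separate reading. It stood at 0.721 to 1.42 CPM in untreated dHL-60 and at 74.6 and 60.9 in uHL-60 (-6.00 ± 0.28), but 44.6% of its exon bases are shared on the same strand with another annotated gene, AC079781.5. Across the table, 55% of genes sharing over 50% of their exon bases in this way were at least 16-fold lower in dHL-60, against 1.49% of genes sharing at most 10%. ASNS lies in the class between these, sharing over 10 to 50%, where 6.1% of 688 genes were that much lower and the median log2 difference was -0.383. The 91 symbols of read-through transcripts summed to 26.2 to 48.5 CPM in dHL-60 libraries and to 617 to 629 in uHL-60. The value of ASNS is thus uncertain and is not read here as a difference between the cell states. Without such symbols the count of members was 5 higher and 13 lower. ASNS comparisons within dHL-60 rest on 2 to 25 counts a library.

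**Figure D5:**
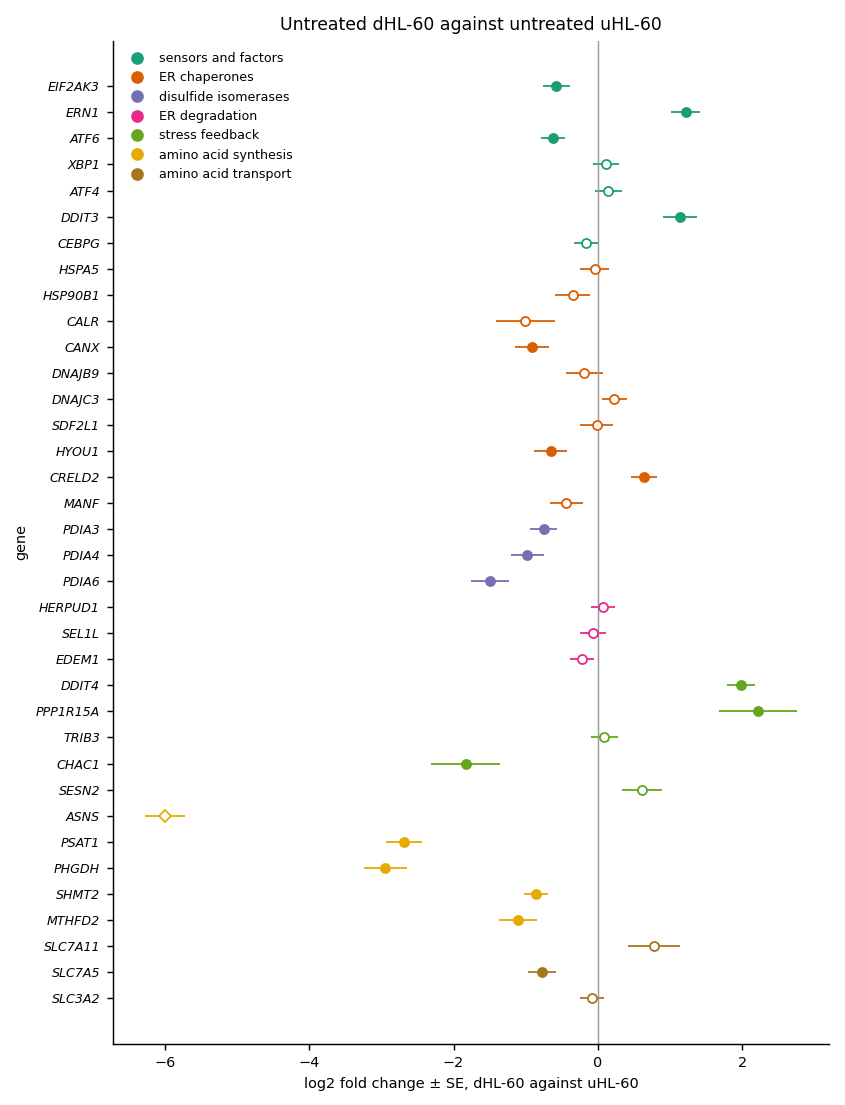
The log2 fold change of untreated dHL-60 against untreated uHL-60 is plotted for each member with its SE, coloured by role, filled where called. PHGDH, PSAT1 and the 3 isomerases lie to the left of 0 and PPP1R15A, DDIT4, ERN1 and DDIT3 to the right; ASNS, an open diamond at -6.00, shares exons with another gene and is not read as a difference.

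Further genes of both pathways were taken from 2 lists. Of 34 other genes of ER folding, translocation and degradation, 32 were tested, and 13 rose and 2 fell at 4 h with 1 µg/ml (46.9%, median 0.202), 12 and 2 with 10 µg/ml (43.8%), 2 and 3 at 24 h with 1 µg/ml (15.6%) and 5 and 8 with 10 µg/ml (40.6%). Over all genes the shares were 38.7, 41.3, 21.2 and 42.6%. In either direction the list thus lay near the background at 10 µg/ml and at 24 h. It lay little above it at 4 h with 1 µg/ml. By direction at 4 h, 13 and 12 of 32 rose, where 18.7 and 20% of all genes rose. At each dose 2 fell, where 20.1 and 21.3% of all genes fell. At 24 h 13.9 and 23.6% of all genes rose and 7.26 and 19% fell. The largest at 4 h and 1 µg/ml were HSPA13, an HSP70 relative of the ER (1.58 ± 0.34), FICD, which modifies HSPA5 (1.40 ± 0.19), and ERO1B, an ER oxidase (1.30 ± 0.29). The response fell from 4 to 24 h in 9 of them at 1 µg/ml and 11 at 10 µg/ml and rose in 1 and 2 (31.2 and 40.6%, against 20.7 and 33.7% of all genes), with ERO1B at -1.92 ± 0.42 and -2.77 ± 0.43. At 24 h DERL3, a channel subunit of degradation, was among the lower genes (-1.10 ± 0.24 and -1.16 ± 0.24). Against uHL-60, 6 were higher and 12 lower in untreated dHL-60 (56.2%, against 58% of all genes), led by FKBP11 (3.0 ± 0.27). PDIA5 (-2.0 ± 0.35) shares 14.3% of its exon bases on the same strand and is uncertain, and TXNDC5, which shares 60.6%, is not read.

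Of 34 other genes of the integrated stress response, 30 were tested within dHL-60. At 4 h 6 rose and 5 fell with 1 µg/ml (36.7%, median -0.167) and 7 and 4 with 10 µg/ml, against 38.7 and 41.3% of all genes. At 24 h 4 rose and 1 fell (16.7%) and then 7 and 6 (43.3%), against 21.2 and 42.6%. ATF3, an immediate target of ATF4 and of inflammatory signals, was at 0.824 and 1.80 CPM in 4 h controls, 15.5 and 16.7 at 1 µg/ml and 18.1 and 18.0 at 10 µg/ml (3.58 ± 0.30 and 3.74 ± 0.30). At 24 h its controls held 3 counts each, and it was called at 10 µg/ml (3.27, 95% interval 2.218 to 4.327) and not at 1 µg/ml (1.61 ± 0.60, adjusted p = 0.0745). The factor CEBPB rose by 1.74 ± 0.22 and 1.18 ± 0.22 at 4 h, and ATF5, another translationally controlled factor, by 1.23 ± 0.14 at 1 µg/ml and 2.42-fold at 10 µg/ml. PPP1R15B, the constitutive counterpart of PPP1R15A, rose by 1.43 ± 0.17 and 1.63 ± 0.17. At 24 h the proline enzyme PYCR1 fell (-1.54 ± 0.36 and -2.03 ± 0.37), and the death gene BBC3 rose by 1.32 ± 0.19 and 2.05 ± 0.19. In the comparison of responses at 4 h, 5 of 31 were greater in dHL-60 and 0 smaller (16.1%, against 10.3% of all genes). Of all genes 5.43% were greater and 4.91% smaller. Among the 5 were ATF3 (3.54 ± 0.67), CEBPB (1.76 ± 0.40) and PPP1R15B (1.45 ± 0.29). Against uHL-60, 7 of 31 were higher and 13 lower in untreated dHL-60 (64.5%, against 58% of all genes). Among them were CEBPB (2.90 ± 0.42) and CBS, the enzyme that starts cysteine synthesis from homocysteine (-3.12 ± 0.58). CBS was at 0 to 0.856 CPM in untreated dHL-60 and at 4.26 and 4.42 in uHL-60, so its fold rests on few reads and is uncertain. NUPR1, a stress-induced nuclear protein, held 0 counts in both untreated uHL-60 libraries and 0.107 to 0.942 CPM in untreated dHL-60, so no fold is given. Of 19 tRNA synthetases, 1 matched a symbol under the names used, FARSA, which fell at 4 h (-0.48 at 1 µg/ml and -0.50 at 10 µg/ml), and the other 18 were not analysed here.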

How the data were processed

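The authors deposited raw counts per gene symbol for 16 bulk mRNA libraries. Per the submitters' processing notes, the tools named are fastp 0.20.0, HISAT2 2.1.0, featureCounts 2.0.1, DESeq2 1.28.0 and edgeR 3.36.0, with the build GRCh38. Their order, the aligner settings and the use of strand in counting are not stated. In the deposited table, 1343 symbols of the uHL-60 columns stood at another place in the sort order and were realigned by that order (correlation with untreated dHL-60 at 4 h 0.247 as deposited, 0.887 realigned, 0.918 for other symbols); 0 of the members was among them.

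Genes were tested with edgeR 4.0.16 in R 4.3.3 (TMM scaling, low-count filter, quasi-likelihood test), with p-values adjusted over all genes tested by Benjamini-Hochberg and called at 0.05. dHL-60 comparisons shared 1 fit. All 36 members passed the filter in each comparison. Library totals ran from 9653374 to 20157081 counts. Intervals for uHL-60 ratios are 95% intervals and cover counting error only. In counts simulated for 1 µg/ml at 4 h over 11599 genes, 96% of changes of log2 size 1 and 100% of size 2 were recovered. In the comparison of the responses of both states at 4 h, over 12018 genes, 36% and 96% were recovered. Changes were simulated only in genes above a set level and only at these sizes, with libraries drawn independently. Many members changed by less than log2 size 1, and CHAC1 rests on few counts. Recovery was not determined for smaller changes, for genes at low counts or for correlated libraries.

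The members and gene lists were chosen with earlier results of these data known. Library values were given for the called members with the largest changes in each role and for HSPA5, XBP1, ATF4, DDIT3, DDIT4, PPP1R15A, TRIB3, CHAC1, ASNS, SLC7A11 and SLC3A2. From each further list the 3 called genes with the largest changes were named, and ATF3 always. Alternatives were RLE and upper-quartile scaling, DESeq2 1.42.0, no low-count filter, a replicate block and leaving out each dHL-60 library. Analyses with the uHL-60 columns as deposited and without symbols that share exons were also run, the latter chosen after seeing the data.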

Additional observations from a re-analysis of the deposited data

Results flagged for a closer look

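For these members the response to LTA differed between times or cell states by a test of the difference itself (edgeR interaction term, Benjamini-Hochberg adjusted p under 0.05). Between 24 and 4 h at 1 µg/ml, the log2 response of sensors and factors differed by -0.77 for EIF2AK3, -1.95 for XBP1 and -0.93 for DDIT3. Among chaperones it differed by -0.88 for HSPA5, -1.12 for HSP90B1, -1.04 for CALR, -1.59 for DNAJB9, -0.69 for DNAJC3, -0.92 for SDF2L1 and -1.01 for HYOU1. The isomerases PDIA3 and PDIA6 differed by -0.97 and -1.09, PPP1R15A by -1.86, SESN2 by -0.86 and SLC7A5 by -0.69.

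At 10 µg/ml the same difference was -1.93 for XBP1, -0.98 for HSPA5, -1.28 for HSP90B1, -0.96 for CALR, -0.99 for CANX, -1.58 for DNAJB9, -0.84 for DNAJC3 and -1.03 for HYOU1. It was -0.90 for PDIA3, -1.38 for PDIA6, -1.25 for PPP1R15A, -0.88 for MTHFD2 and -0.59 for SLC7A5, and 2.76 for CHAC1, whose 24 h controls held 5 and 4 counts.

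Between dHL-60 and uHL-60 at 4 h the response to 1 µg/ml differed by 0.91 for EIF2AK3, 1.44 for XBP1, 0.91 for DNAJC3, 0.90 for HYOU1, 0.75 for PDIA3, 2.24 for DDIT4, 2.49 for PPP1R15A, 1.16 for MTHFD2 and 2.71 for SLC7A11. At 24 h it differed by 2.45 for SLC7A11. Each uHL-60 group is 1 library, so its spread was assumed to equal that of the dHL-60 duplicates.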

How the results depend on the processing

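Members called ranged, without 1 library at a time, from 17 to 21 and 18 to 20 at 4 h (1 and 10 µg/ml), 2 to 8 and 10 to 13 at 24 h, 0 to 3 between doses at 24 h, 11 to 18 for untreated time, 9 to 14 and 12 to 14 for the change in response with time, 17 to 19 between states, and 4 to 9 and 0 to 1 for the response of dHL-60 against uHL-60 at 4 and 24 h. Without the low-count filter 5 members were called between doses at 24 h and 4 between state responses at 24 h. That last count was 2 with RLE scaling, with DESeq2 and with the uHL-60 columns as deposited, and upper-quartile scaling left 5 at 4 h. Upper-quartile scaling moved the median of all genes by -0.117 and -0.134 at 4 h (1 and 10 µg/ml). It moved the median by 0.124 between states and by -0.105 for state responses at 4 h. The cause of these changes was not tested.

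Replicate numbers did not pair the libraries in a uniform way (15 pairs of groups, correlations -0.457 to 0.585, 6 over 0.1). The highest correlation was between untreated dHL-60 and 1 µg/ml at 4 h (0.585). The lowest was between untreated dHL-60 and 10 µg/ml at 24 h (-0.457). These values do not show that the libraries were independent, and the source of the correlations was not tested. With the replicate block the counts were 23, 22, 9, 17, 0, 4, 20, 17 and 14 in the order of the dHL-60 comparisons above (4 h, 24 h, doses at 4 and 24 h, time, responses), and DDIT4 was newly called in the change of response at 1 µg/ml (-0.84, adjusted p = 0.0436).

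Only values that were not called changed sign. TRIB3 at 1 µg/ml and 24 h was -0.011 with RLE, -0.059 with upper-quartile scaling, -0.01 with DESeq2 and -0.002 with the replicate block. With upper-quartile scaling ATF4 was 0.015 (change of response, 10 µg/ml), HSPA5 0.083 and SLC3A2 0.041 (between states). Leaving out 1 library gave the following ranges. At 1 µg/ml and 4 h they were -1.547 to 0.333 for ASNS. At 1 µg/ml and 24 h they were -0.073 to 0.246 for ATF4 and -0.255 to 0.229 for TRIB3. At 10 µg/ml and 24 h they were -0.056 to 0.242 for DDIT3. Between doses at 4 h they were -1.453 to 0.434 for ASNS, -0.389 to 0.265 for CHAC1, -0.014 to 0.26 for DDIT3, -0.063 to 0.575 for DDIT4, -0.008 to 0.449 for SLC7A11 and -0.043 to 0.077 for XBP1. Between doses at 24 h they were -0.152 to 0.548 for ASNS, -0.148 to 0.107 for HSPA5, -0.118 to 0.608 for SLC7A11 and -0.118 to 0.205 for XBP1. For the change of response at 1 µg/ml they were -1.55 to 0.345 for ASNS and -0.504 to 0.359 for SLC7A11. For the change of response at 10 µg/ml they were -0.18 to 0.283 for ASNS, -0.209 to 0.106 for ATF4 and -0.466 to 0.356 for SLC7A11. Between states they were -0.095 to 0.023 for HSPA5. For state responses at 4 h they were -1.616 to 0.308 for ASNS. For state responses at 24 h they were -0.006 to 0.315 for ATF4 and -0.073 to 0.413 for TRIB3.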

Other observations

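The further genes of both pathways were also compared over time, dose and cell state. Untreated dHL-60 between 4 and 24 h showed 10 of 32 other ER genes higher and 0 lower (31.2%, where 17.8% of all genes were higher, 23.1% lower and 40.9% called), with PDIA5, a disulfide isomerase that shares 14.3% of its exon bases with a gene on its strand (1.63 ± 0.20), DERL3 (0.89 ± 0.24) and SIL1, a nucleotide exchanger of HSPA5 (0.88 ± 0.17), at the top. Of 30 other genes of the integrated stress response 9 rose and 8 fell over that time (56.7%, against 40.9% of all genes), among them NUPR1 (-2.80 ± 0.70, under 1 CPM in each of these libraries), ATF3 (-2.77 ± 0.54) and PYCR1 (2.15 ± 0.39). Between doses at 24 h 3 of these 30 were higher with 10 µg/ml and 0 lower (10%, where 3.03% of all genes were higher and 3.82% called). They were ATF3 (1.66 ± 0.40), CEBPB (1.06 ± 0.22) and BBC3 (0.74 ± 0.17). Of the 32 other ER genes 0 were called between these doses. For PCK2, the mitochondrial PEP carboxykinase, the log2 response was higher at 24 h than at 4 h (1.25 ± 0.39 at 1 µg/ml and 1.81 ± 0.39 at 10 µg/ml). This was a change of direction. PCK2 was at 13.6 and 18.8 CPM in 4 h controls and 6.71 to 14.1 with LTA. At 24 h it was at 8.18 and 9.79 CPM in controls and 13.2 to 20.2 with LTA. PPP1R15B responded less at 24 h than at 4 h (-1.18 ± 0.24 and -1.65 ± 0.24). Of the 32 other ER genes, 3 responded more in dHL-60 than in uHL-60 at 4 h and 0 responded less (9.38%). Of all genes 5.43% responded more, 4.91% less and 10.3% were called. The 3 were DNAJB11, an HSPA5 cochaperone (1.18 ± 0.26), SEC61B, a translocon subunit (0.95 ± 0.23), and SERP1, a translocon-associated protein (0.89 ± 0.26).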
